A study of Mus musculus with 7 samples.

Results

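Matrix metalloproteinases (MMPs) and their tissue inhibitors (TIMPs) were followed in endpoint tumors of a mouse glioma model. The set held 10 genes of the 19257 named in the deposited table, 6 MMPs (Mmp2, Mmp9, Mmp14, Mmp15, Mmp16 and Mmp17) and the 4 TIMPs (Timp1, Timp2, Timp3 and Timp4). They were found by their symbols, and all 10 passed the filter on low values that left 14782 genes for testing. The genes were chosen by family, with their normalized counts in this GPC6 against 3xCR contrast already known, so their values in it are given as a description. RNA-Seq was done on 3 brains with 3xCR tumors, numbered 2 to 4, and on 4 brains with GPC6 tumors, numbered 1 to 4. In both groups a CRISPR-Cas9 construct whose guides target tumor suppressors such as Trp53 and Nf1 was electroporated in utero into progenitors lining the lateral ventricle of mouse embryos of CD-1 and C57BL/6 background. The GPC6 tumors were also made to overexpress the glypican GPC6, a heparan sulfate proteoglycan, from a piggyBac transposon, the system that also labels cells with GFP in this model. The promoter behind GPC6 and the age and sex of the animal behind each library are not given in the sources used here, and tumor-free brain was not analysed here.

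MMPs are zinc-dependent endopeptidases that cut collagens, laminins and other proteins of the extracellular matrix as well as growth factors and receptors at the cell surface. They are made as inactive proforms, opened by other proteases, and blocked by TIMPs, which bind the active site. Mmp2 and Mmp9 encode the secreted gelatinases, Mmp14, Mmp15 and Mmp16 encode enzymes held in the membrane by a transmembrane segment, and Mmp17 encodes one held by a glycosylphosphatidylinositol anchor. Timp2 has a double role, since together with the Mmp14 protein it brings the proform of Mmp2 to the cell surface for activation. Both families are studied in glioma for their part in the movement of tumor cells through brain tissue.

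Promoter sequence is shown for a membrane MMP and for inhibitors whose levels are described below, so that letters at the start of the gene stand beside the values. RefSeq (GRCm38.p6) gave a promoter for 6 of the 10 genes, and the 250 bases before the start are printed 5′ to 3′ on the strand of the gene. Capitals mark a GC box (GGGCGG) or an ETS motif (CAGGAAG) on either strand. The windows lie at chrX:20869916-20870165 on the plus strand (Timp1), chr14:54431348-54431597 on the plus strand (Mmp14) and chr6:115252206-115252455 on the minus strand (Timp4).
Timp1: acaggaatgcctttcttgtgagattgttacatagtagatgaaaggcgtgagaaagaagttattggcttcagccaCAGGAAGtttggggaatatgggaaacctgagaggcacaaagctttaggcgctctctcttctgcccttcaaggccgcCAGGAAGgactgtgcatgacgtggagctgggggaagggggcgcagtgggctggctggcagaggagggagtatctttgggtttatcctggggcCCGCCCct
Mmp14: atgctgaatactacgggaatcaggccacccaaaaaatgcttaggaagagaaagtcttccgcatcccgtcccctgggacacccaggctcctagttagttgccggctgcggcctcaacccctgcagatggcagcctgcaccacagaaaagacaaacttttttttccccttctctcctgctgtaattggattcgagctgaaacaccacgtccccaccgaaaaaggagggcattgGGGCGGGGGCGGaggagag
Timp4: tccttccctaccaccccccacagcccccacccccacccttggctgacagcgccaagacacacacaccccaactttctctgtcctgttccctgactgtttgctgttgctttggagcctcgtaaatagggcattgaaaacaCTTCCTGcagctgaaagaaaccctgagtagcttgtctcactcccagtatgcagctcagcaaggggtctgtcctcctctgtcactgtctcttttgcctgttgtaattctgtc
Timp1 held the ETS letters at -176 to -170 and at -100 to -94 from the start and a GC box on the other strand at -8 to -3. Mmp14 held a GC box at -19 to -14 and a further one at -13 to -8. Timp4 held the ETS letters on the other strand at -111 to -105. Over 32851 promoters of the same length, 32.7% held a GC box and 10.8% the ETS letters on either strand. The AP-1 motif TGANTCA (6.75% of all promoters), the TATA box TATAAA (12.4%) and the E box CACGTG (6.02%) were searched as well, and none of the 3 windows held one of them. The matches describe letters only and say nothing of a factor that binds there.

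The libraries held 7197692 to 18879762 reads on genes, and a count of 0 allowed 1.64 to 4.64 normalized counts, which covers counting error only. Gpc6, the check of the labels, had 217, 226 and 126 normalized counts in the 3xCR tumors (replicates 2, 3 and 4 here and in all such lists) against 675, 263, 3434 and 5084 in the GPC6 tumors (replicates 1, 2, 3 and 4). The library labelled GPC6 replicate 2 therefore lay near the 3xCR level. In GPC6 replicate 1 the 10 choroid plexus markers summed to 12753 normalized counts, against 113 to 3927 in the other 6 libraries. Ttr alone made up 11813 of that sum. Folr1, Clic6, Kl, Kcnj13 and Otx2 were also highest in GPC6 replicate 1, whereas Kcne2, Aqp1, Sostdc1 and Calml4 were highest in a 3xCR tumor. The 10 markers of proliferating cells summed to 677 in GPC6 replicate 1 and to 5271 to 14357 in the others, and 5 of the genes described were lowest in that library. The part of either in them was not tested. The labels call the cell type neural. All 7 libraries held summed oligodendrocyte precursor markers between 15586 and 84892 normalized counts and summed neuronal markers between 5292 and 60147. Bulk RNA reads all cells of the piece of tissue, so fewer cells of a type and less RNA per cell cannot be told apart. The methods call the replicates biological, and p-values measure the spread between these tumors.

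No MMP or TIMP gene passed the test between the groups. limma on log2(normalized count + 1) with Benjamini-Hochberg adjustment called 0 of the 10 genes at an adjusted p under 0.05, as it called 0 of all 14782 genes (0%), with 0.730 as the smallest adjusted p. At an unadjusted p under 0.05 limma found Mmp2 and Mmp17, 2 of 10, where the share over all genes was 4.66%. edgeR's quasi-likelihood test, run on reads recovered from these values, also called 0 of 10 and 0 genes after adjustment, and 3 of 10 (Mmp2, Mmp17 and Timp1) before it, where the share over all genes was 6.7%. DESeq2 called 0 of 10 and 4 genes after adjustment, and the same 3 of 10 before it against 9.77% of all genes. Its adjusted p for Mmp2 was 0.0632, over the threshold. With voom, 0 of 10 and 0 genes were called after adjustment. As this contrast chose the genes, nothing is read from these shares or p-values. The median log2 fold change (GPC6 minus 3xCR) of the 10 genes was -0.45, with 8 below 0, and that of all genes tested was -0.02, with 7640 of them below 0.

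**Figure D1:**
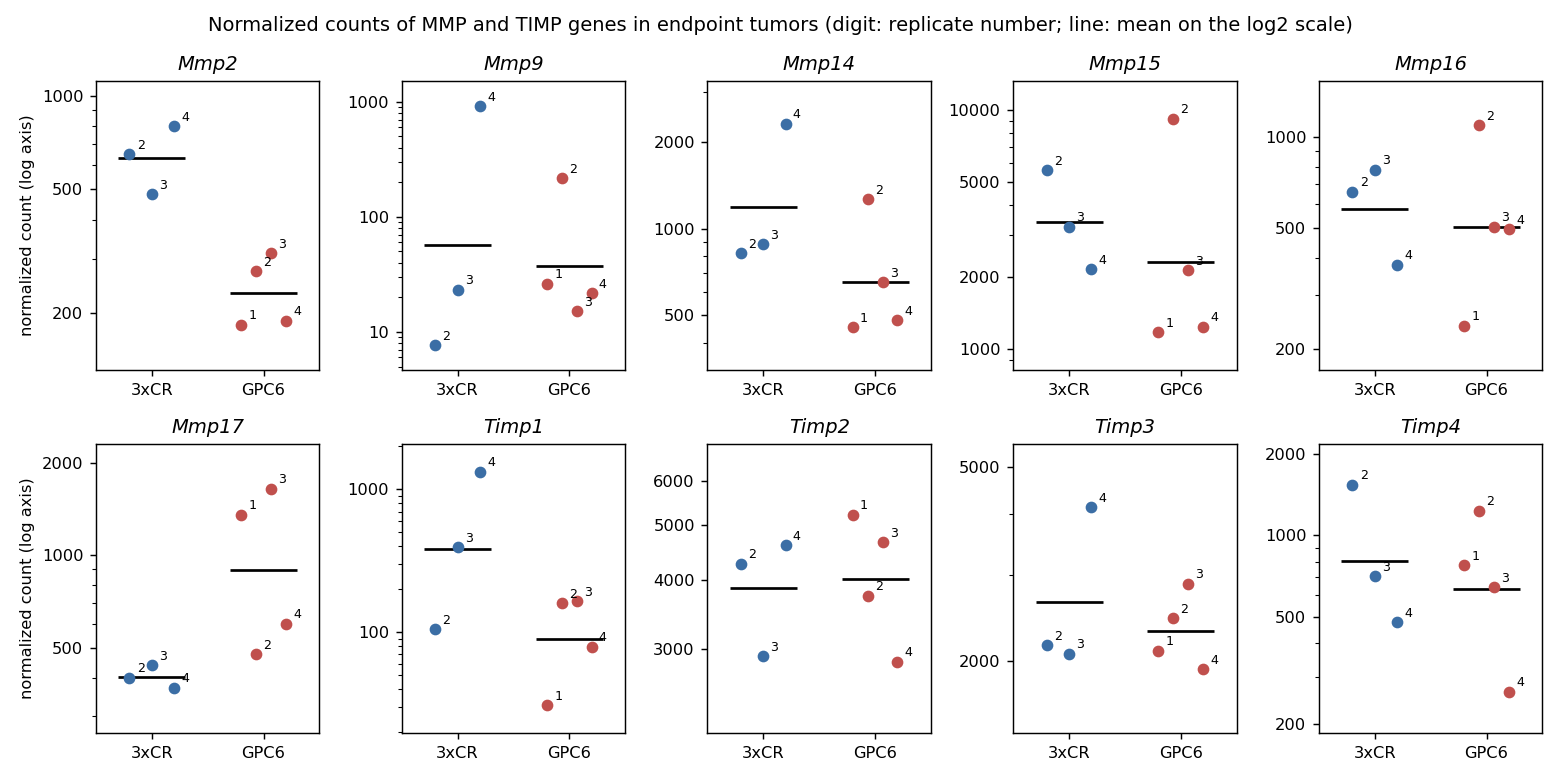
Normalized counts on a log axis for each of the 10 genes, with 1 point per tumor (blue 3xCR, red GPC6), the replicate number beside it and a line at the mean on the log2 scale. The groups lay apart in Mmp2 (lower in all 4 GPC6 tumors) and Mmp17 (higher in all 4) and overlapped in the other 8 genes.

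Mmp2, which encodes gelatinase A, a secreted enzyme that cuts type IV collagen of basement membranes, lies at chr8:92827291-92853420. Its normalized counts were 650, 483 and 796 in the 3xCR tumors and 184, 273, 311 and 189 in the GPC6 tumors. All 4 GPC6 tumors lay below all 3 3xCR tumors, and Mmp2 was the only one of the 10 genes placed so, where 3.52% of all genes tested were. The means were 643 ± 157 (SD, n = 3) and 239 ± 62.9 (SD, n = 4), and the log2 fold change was -1.43 (standard error 0.29). Leaving out any 1 library kept the value between -1.62 and -1.26. The library labelled GPC6 replicate 2, near the 3xCR level in Gpc6, lay with the other GPC6 tumors in Mmp2.

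Mmp9, which encodes gelatinase B, an enzyme often made by neutrophils and macrophages, lies at chr2:164940780-164955850. It had 7.67, 23.3 and 916 normalized counts in the 3xCR tumors and 26.3, 217, 15.1 and 21.6 in the GPC6 tumors. One tumor of each group was high, 3xCR replicate 4 and the library labelled GPC6 replicate 2, and the other 5 lay between 7.67 and 26.3, so the groups overlapped. The highest value was 119 times the lowest, a wider range than in 99.2% of the genes with reads in every library. The means were 316 ± 520 (SD, n = 3) and 70.1 ± 98.3 (SD, n = 4), with a log2 fold change of -0.59 (standard error 1.61) that turned to 1.40 without 3xCR replicate 4. The count models gave -2.15 with edgeR and DESeq2 alike, and voom gave 0.054. Few reads lay behind the low values, with 14 to 25 in those 5 libraries and 220 and 663 in the high ones.

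Markers of other cells were set beside Mmp9, and only some of them were highest in the same libraries. The sum of Col1a1, Col1a2 and Col3a1, collagens of fibroblasts and meninges, was 356, 1373 and 45845 normalized counts in the 3xCR tumors and 269, 3509, 467 and 329 in the GPC6 tumors, highest in the same pair of libraries. The other markers of that list were split. Dcn was highest in the same pair of libraries (1046 and 396), and Lum in 3xCR replicate 4 (133) and then 3xCR replicate 3 (63.3). Pdgfra (2309), Slc6a13 (4.14) and Aldh1a2 (12.4) had their lowest value of the 7 in 3xCR replicate 4. Igf2 (1010) and Foxc1 (68.2) were highest in the library labelled GPC6 replicate 2. The whole list of 10 fibroblast and meningeal markers summed to 7588 to 49500 in 3xCR and 4200 to 22446 in GPC6 tumors, with 5 of the 10 log2 fold changes above 0 and 5 below, and Pdgfra, also a marker of oligodendrocyte precursors, took 2309 to 17225 of it. The 10 macrophage and monocyte markers summed to 4239, 11117 and 36667 in the 3xCR and 1006, 12652, 3154 and 11971 in the GPC6 tumors. Lyz2 alone made up 29595 of the sum in 3xCR replicate 4. The neutrophil markers were low in every library, with sums of 19.2 to 66.0 in 3xCR and 19.8 to 78.2 in GPC6 tumors over the 8 of 10 that have a row. Of these 8 only S100a8 and S100a9 passed the filter, and both had 6.91 normalized counts in 3xCR replicate 4, where Mmp9 was highest. The part of these cells in the Mmp9 values was not tested.

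Mmp14, on chromosome 14 from 54431612 to 54445364, encodes the membrane enzyme that activates the Mmp2 proform. It had 822, 883 and 2319 normalized counts in the 3xCR tumors and 453, 1269, 650 and 480 in the GPC6 tumors. The 3 GPC6 tumors other than the library labelled replicate 2 lay below every 3xCR tumor, and replicate 2 lay above 3xCR replicates 2 and 3, so the groups overlapped. The log2 fold change was -0.87 (standard error 0.48), with means of 1341 ± 847 (SD, n = 3) and 713 ± 380 (SD, n = 4). It was -1.19 without GPC6 replicate 2 and -0.39 without 3xCR replicate 4.

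Mmp15, on chromosome 8 from 95352268 to 95375080, encodes a further transmembrane MMP and had the most normalized counts per length of the 6 MMPs. The counts were 5611, 3245 and 2162 in the 3xCR tumors and 1172, 9202, 2130 and 1239 in the GPC6 tumors. The highest of all was the library labelled GPC6 replicate 2, while the other 3 GPC6 tumors lay below every 3xCR tumor. The log2 fold change of -0.56 (standard error 0.73) became -1.22 without that library and -0.20 without 3xCR replicate 2, and the count models put it at -0.11 (edgeR) and -0.080 (DESeq2). Mmp16, on chromosome 4 from 17852893 to 18119145, a relative of Mmp14 and Mmp15, had 660, 781 and 378 in the 3xCR tumors and 238, 1095, 506 and 497 in the GPC6 tumors. It was highest in the same library and lowest in GPC6 replicate 1, and the log2 fold change of -0.20 (standard error 0.50) turned to 0.16 without GPC6 replicate 1 and 0.017 without 3xCR replicate 3. Oligodendrocyte precursor markers had their highest and lowest sums in those libraries too. The 9 of them summed to 60597, 38680 and 17550 in the 3xCR tumors and 15586, 84892, 28558 and 33555 in the GPC6 tumors. Singly they were split. Olig1, Olig2, Sox10, Gpr17 and Lhfpl3 were highest and lowest in those libraries. Pdgfra, Cspg4 and Bmp4 were lowest in 3xCR replicate 4 and Neu4 in GPC6 replicate 4, and Bmp4 was highest in 3xCR replicate 2. The part of these cells in Mmp15 and Mmp16 was not tested.

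Of the 6 MMPs, Mmp17 had the higher mean in the GPC6 tumors and the other 5 the lower. It encodes a membrane enzyme on a lipid anchor, lies at chr5:129584169-129611099, and had 401, 441 and 372 normalized counts in the 3xCR tumors and 1354, 477, 1645 and 600 in the GPC6 tumors. All 4 GPC6 tumors lay above all 3 3xCR tumors, as in 2.8% of all genes tested, although the library labelled GPC6 replicate 2 exceeded the highest 3xCR tumor by little. The 3xCR tumors were close together (405 ± 34.8, SD, n = 3) and the GPC6 tumors spread widely (1019 ± 569, SD, n = 4). The log2 fold change was 1.14 (standard error 0.45) and stayed between 0.85 and 1.45 with each library left out. The 10 neuronal markers summed to 9415, 6448 and 5292 normalized counts in the 3xCR tumors and 60147, 6713, 29782 and 10620 in the GPC6 tumors. GPC6 replicates 1 and 3 were thus the highest pair in both measures, and the part of neuronal RNA in Mmp17 was not tested.

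Timp1, a broad inhibitor of secreted MMPs that is induced in reactive glia, had the lowest log2 fold change of the 10 genes. It lies at chrX:20870166-20874735 and had 105, 395 and 1332 normalized counts in the 3xCR tumors and 30.9, 159, 164 and 79.2 in the GPC6 tumors. The groups overlapped because 3xCR replicate 2 lay below GPC6 replicates 2 and 3. The means were 611 ± 641 (SD, n = 3) and 108 ± 64.6 (SD, n = 4), with a log2 fold change of -2.08 (standard error 0.90) that moved to -3.0 when 3xCR replicate 2 was left out and to -1.18 when 3xCR replicate 4 was. The highest value was 43.1 times the lowest, a wider range than in 96.7% of genes. The sums of the 3 collagens and of the macrophage markers given above were highest in 3xCR replicate 4, as Timp1 was. Pdgfra, Slc6a13 and Aldh1a2 of the fibroblast list were lowest there. Of the macrophage list, Lyz2, Ms4a7, Ly6c2 and Cd68 were highest there, but Ccr2, Cd163, Mrc1, Msr1, F13a1 and Chil3 in other libraries. The part of these cells in Timp1 was not tested.

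The log2 fold changes of the other 3 inhibitors were smaller than their standard errors. Timp2, which takes part in the activation of Mmp2 as well as inhibiting it, lies at chr11:118301069-118355740. It had 4268, 2921 and 4604 normalized counts in the 3xCR tumors and 5220, 3741, 4662 and 2852 in the GPC6 tumors. The groups ran through each other, with a log2 fold change of 0.06 (standard error 0.29), and the highest library was 1.83 times the lowest, a smaller range than the median gene's 2.81. Its log2 fold change turned to -0.14, -0.069 and -0.014 without 3xCR replicate 3, GPC6 replicate 1 and GPC6 replicate 3. Timp3, an inhibitor bound to the matrix that also acts on ADAM proteases, lies at chr10:86300372-86349506 and had 2152, 2068 and 4141 in the 3xCR tumors and 2094, 2443, 2881 and 1918 in the GPC6 tumors. It was high in 3xCR replicate 4 alone, and the log2 fold change was -0.20 (standard error 0.30) with that library and 0.13 without it. Timp4, an inhibitor with a narrow tissue range that includes the brain, lies at chr6:115241892-115252205 and had 1540, 706 and 477 in the 3xCR tumors and 777, 1234, 643 and 263 in the GPC6 tumors. Its highest values were those of 3xCR replicate 2 and the library labelled GPC6 replicate 2, its log2 fold change was -0.34 (standard error 0.57), and it became 0.13 without 3xCR replicate 2 and 0.084 without GPC6 replicate 4.

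**Figure D2:**
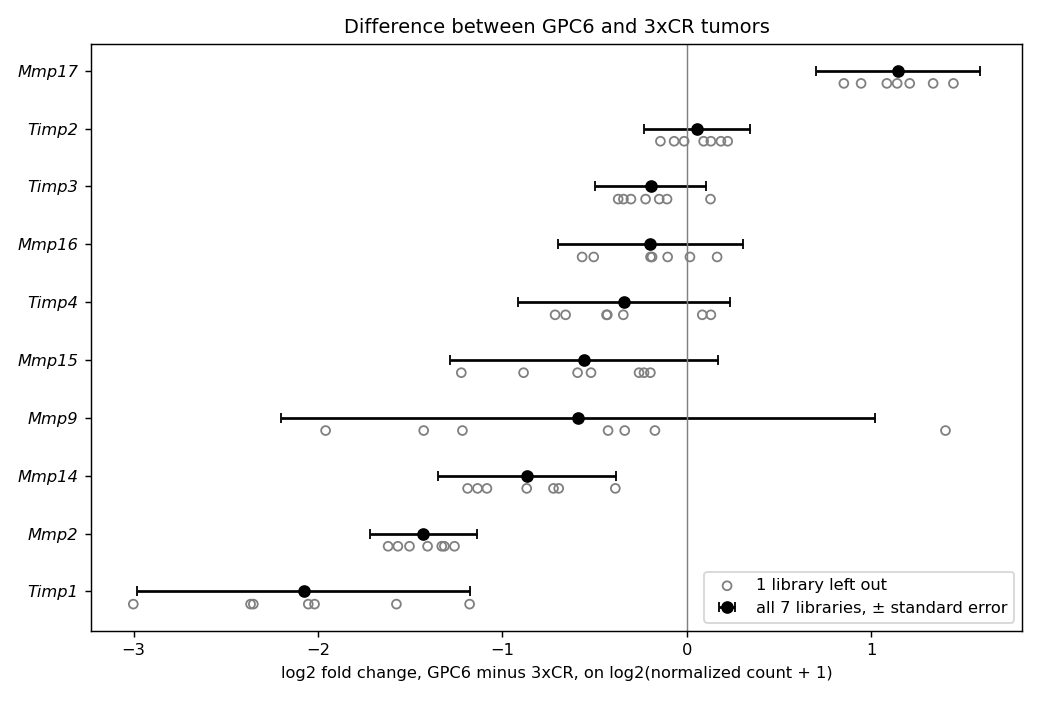
Log2 fold change (GPC6 minus 3xCR, on log2(normalized count + 1)) of each gene with all 7 libraries (black, ± standard error) and with 1 library left out (open circles). Mmp2, Mmp14, Mmp15 and Timp1 stayed below 0 and Mmp17 above 0, whereas Mmp9, Mmp16, Timp2, Timp3 and Timp4 crossed 0.

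The TIMP genes Timp1, Timp3 and Timp4 lie inside synapsin genes, which code for proteins of synaptic vesicles, on the strand opposite to them. Timp1 shares 0 exon bases with Syn1, Timp4 shares 90 with Syn2 and Timp3 shares 1733 with Syn3, in the GENCODE annotation of GRCm38. The libraries were stranded, but whether the counting used the strand is not stated, so reads of Timp3 and Timp4 cannot be told apart from those of their host in the shared bases. Syn3 had 195, 104 and 58.0 normalized counts in the 3xCR tumors and 407, 226, 263 and 138 in the GPC6 tumors. Syn2 had 1490, 868 and 362 in the 3xCR tumors and 3676, 1175, 3822 and 1460 in the GPC6 tumors. Syn2 was highest in GPC6 replicate 3 and Timp4 in 3xCR replicate 2. The counts of Syn2 and Syn3 depend as well on how reads in the shared bases were assigned. The part of host reads in Timp3 and Timp4 was not tested. Syn1, the host of Timp1, had 633, 300 and 73.2 against 3849, 383, 2976 and 534, with its lowest value in 3xCR replicate 4, where Timp1 was highest.

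Levels of different genes were compared per kilobase of merged exons. In the 3xCR tumors Timp2 was highest with 1009 ± 229 normalized counts per kb (SD, n = 3), followed by Timp1 (688 ± 722), Mmp15 (681 ± 327), Timp3 (342 ± 144), Mmp14 (225 ± 142), Mmp2 (191 ± 46.4), Timp4 (154 ± 94.9), Mmp9 (89.2 ± 147), Mmp16 (70.0 ± 23.9) and Mmp17 (61.1 ± 5.26). In the GPC6 tumors the order was Timp2 (1057 ± 267, SD, n = 4), Mmp15 (637 ± 717), Timp3 (287 ± 52.2), Mmp17 (154 ± 86.0), Timp4 (124 ± 68.0), Timp1 (122 ± 72.8), Mmp14 (120 ± 63.8), Mmp2 (71.0 ± 18.7), Mmp16 (67.4 ± 41.8) and Mmp9 (19.8 ± 27.8). Within each group every gene overlapped in range with its neighbor in the order. These ranges run over tumors and do not compare 2 genes within the same library. Within libraries, Timp3 lay above Mmp14 in all 7 and Timp2 above Mmp15 in 6. Timp2 led in both groups, and Mmp17 stood at place 10 in 3xCR and place 4 in GPC6 tumors. Its place below Mmp9 in 3xCR rested on replicate 4, where Mmp9 had 259 and Mmp17 56.1 per kb. In 3xCR replicates 2 and 3 Mmp9 had 2.17 and 6.57 and Mmp17 60.6 and 66.6.

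The balance of inhibitors and enzymes was described as ratios of these levels in each library. The 4 TIMPs summed to 1.15, 1.49 and 2.36 times the 6 MMPs in the 3xCR tumors and to 3.00, 0.730, 2.03 and 2.12 times in the GPC6 tumors. The groups overlapped, with the lowest ratio in the library labelled GPC6 replicate 2, where Mmp15 alone made up 75.5% of the MMP level. Over the 7 libraries Mmp15 made up 28.9% to 75.5% of the MMP level and Timp2 36.1% to 76.0% of the TIMP level. Timp1 made up 6.81%, 28.4% and 45.8% of the TIMP level in the 3xCR tumors and 1.97%, 10.9%, 10.02% and 8.10% in the GPC6 tumors. The ratio of Timp2 to Mmp2 was 5.69, 5.23 and 5.01 in the 3xCR tumors and 24.6, 11.9, 13 and 13 in the GPC6 tumors. The groups lay apart in this ratio, as in Mmp2, while Timp2 overlapped between them. Timp2 over Mmp14 overlapped, at 7.94, 5.06 and 3.04 against 17.6, 4.51, 11 and 9.08. RNA levels of this kind say nothing of how much enzyme was active.

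**Figure D3:**
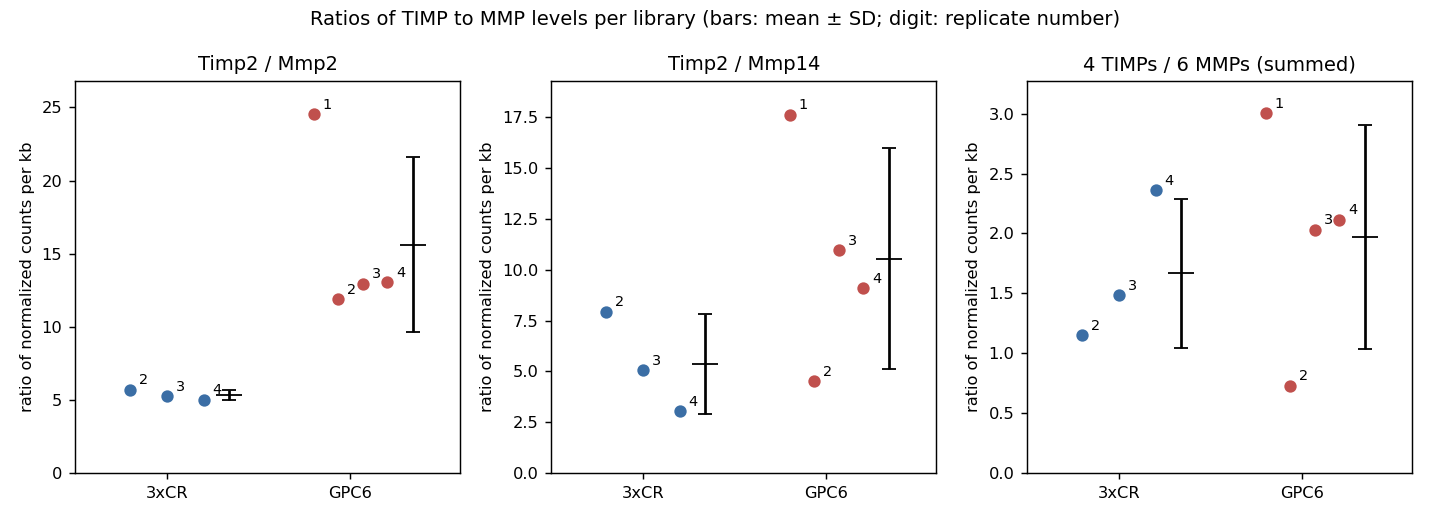
Ratios of normalized counts per kb in each tumor (points with replicate number) with the mean ± SD of each group (bars). Timp2 over Mmp2 lay between 5.01 and 5.69 in 3xCR and between 11.9 and 24.6 in GPC6 tumors, and the other ratios overlapped.

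The variation among the tumors was carried by a few libraries. Of the 10 genes, 5 (Mmp2, Mmp9, Mmp14, Timp1 and Timp3) had their highest value in 3xCR replicate 4, the library that was highest in 23.9% of all genes tested. Another 5 (Mmp2, Mmp14, Mmp15, Mmp16 and Timp1) had their lowest value in GPC6 replicate 1, which was lowest in 31.3% of all genes. GPC6 replicate 4 was lowest in the remaining TIMPs, Timp2, Timp3 and Timp4. The genes most like each of the 10 in pattern, by Pearson's r over the 7 libraries among 11261 genes, are a description only, as so many genes over so few libraries give high values. Mmp9 was most like Aqp1 (r = 0.992), which like it was highest in 3xCR replicate 4 and next in GPC6 replicate 2. Mmp14 was most like Loxl3 (0.985), which encodes an enzyme that crosslinks collagen, and Mmp15 most like Matn4 (0.996), which encodes a matrix protein. Mmp16 had Sox10 (0.976), a marker of the oligodendrocyte lineage, as the third in likeness after Ankrd28 and Ccnk. Mmp2 was most like Med6 (0.979), Mmp17 like Grasp (0.986), Timp1 like Dpagt1 (0.995), Timp2 like Synpr (0.969), Timp3 like Clcn7 (0.948) and Timp4 like Rimkla (0.979).

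The other MMP genes had at most 470 normalized counts in any library, without correction for length. Of 17 listed, 14 had a row and 10 passed the filter, 3 with a log2 fold change above 0 and 7 below, with a median of -0.60 beside -0.02 over all genes, which turned to 0.16 without 3xCR replicate 4. None was called by limma at an adjusted p under 0.05 or at an unadjusted p under 0.05, against 0% and 4.66% of all genes. Mmp24, a membrane MMP of neurons, had the highest mean over the 7 libraries with 113, 58.6 and 45.6 normalized counts in the 3xCR tumors and 470, 128, 229 and 54.5 in the GPC6 tumors, and its log2 fold change was 1.29 (standard error 0.71). Mmp23 had 9.32, 14.9 and 130 in the 3xCR tumors and 4.64, 9.88, 8.87 and 4.12 in the GPC6 tumors, high in 3xCR replicate 4 alone. Mmp19, a secreted MMP, had 82.8, 129 and 290 against 24.7, 144, 69.2 and 77.2. Not corrected for length, its counts lay above those of Mmp24 in 4 of the 7 libraries.

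A cluster of 10 MMP genes on chromosome 9, from 7272514 to 7699585, had 7 genes with a row, of which Mmp3 and Mmp10 (stromelysins), Mmp12 (macrophage elastase) and Mmp13 (a collagenase) passed the filter. All 4 were at 0 in GPC6 replicate 1. Mmp13 had 0, 23.3 and 52.5 normalized counts in the 3xCR tumors and 0, 102, 7.10 and 29.8 in the GPC6 tumors, and Mmp10 had 0, 12.1 and 104 against 0, 57.3, 18.6 and 6.17. Both were highest in the pair of libraries where Mmp9 was high. Mmp12 followed another order, with 364 in GPC6 replicate 4, 97.7 in 3xCR replicate 3 and 0 to 23.95 elsewhere. These values rest on few reads, and a count of 0 in GPC6 replicate 1 allowed 4.64 normalized counts.

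**Figure D4:**
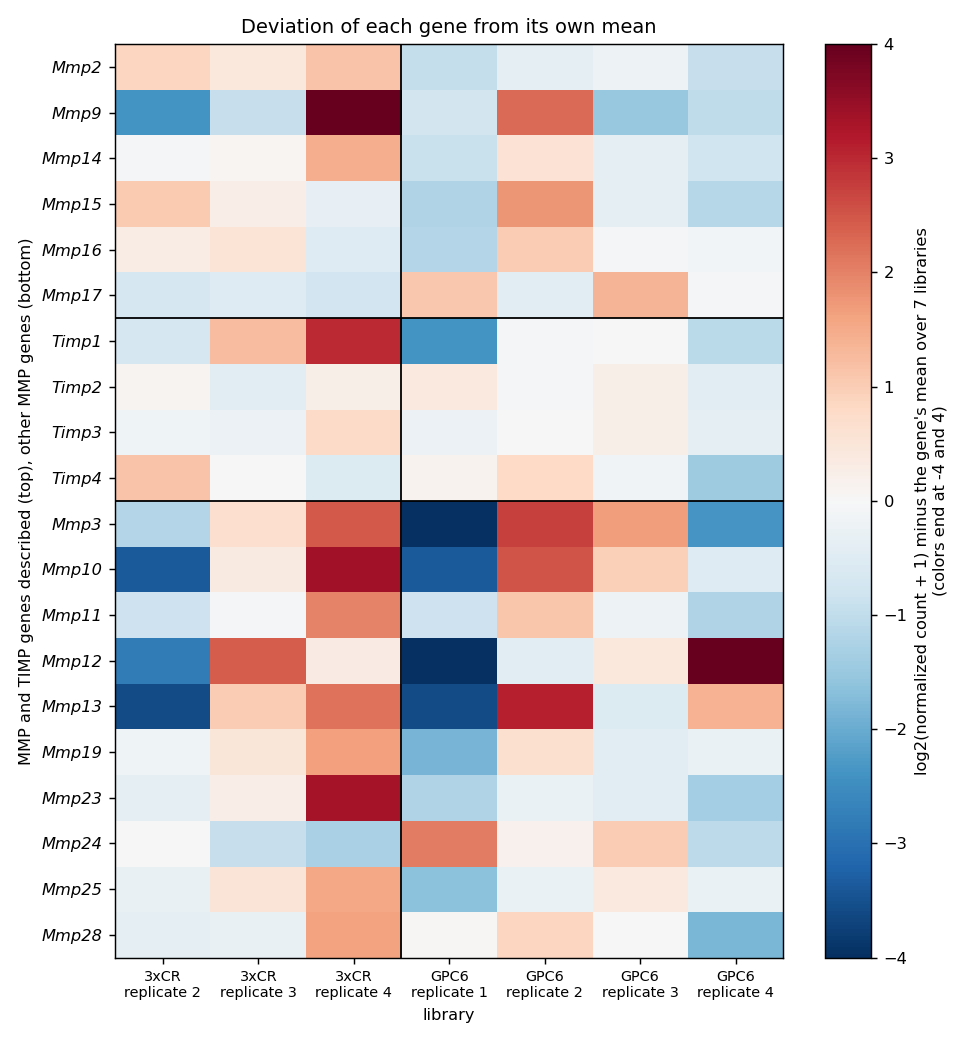
Color gives log2(normalized count + 1) in each of the 7 tumors minus the gene's mean over them, for the 6 MMPs and 4 TIMPs described (top) and the 10 other MMP genes that passed the filter (bottom). 3xCR replicate 4 was highest in 5 of the upper 10 and 6 of the lower 10 genes, and GPC6 replicate 1 lowest in 5 and 4.

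Genes that regulate MMPs, genes of the ADAM and ADAMTS families and matrix substrates all overlapped between the groups. Over all genes tested, 3.52% lay apart with the GPC6 tumors lower and 2.8% with them higher. Among 18 activators and inhibitors of the proteolysis 17 passed the filter, 4 with a log2 fold change above 0 and 13 below (median -0.36, or -0.57 without 3xCR replicate 2). In limma 0 of the 17 had an adjusted p and 1 an unadjusted p under 0.05, against 0% and 4.66% of all genes. That 1 was Serpinf1, a secreted serpin, with 272, 332 and 2671 normalized counts in the 3xCR tumors and 148, 118, 355 and 59.7 in the GPC6 tumors, highest in 3xCR replicate 4 as Timp1 was. Plau, the urokinase that makes plasmin, had 170, 230 and 739 against 34, 213, 150 and 298. Furin, which cuts the propeptide of membrane MMPs, had 571, 673 and 1112 against 492, 497, 581 and 555, and Reck, a membrane inhibitor of MMPs, had 44.4, 80.0 and 58.0 against 80.4, 33.6, 68.3 and 25.7. Among 19 genes of the ADAM and ADAMTS families, 5 lay above 0 and 14 below (median -0.26, or 0.029 without GPC6 replicate 1), with 0 called on either rule. Adam22 had the largest log2 fold change (1.11) and Adamts9 the smallest (-1.06). Among 22 matrix substrates 7 lay above 0 and 15 below (median -0.22, or -0.88 without 3xCR replicate 2 and -0.0067 without 3xCR replicate 4), again with 0 called, from Acan (1.55) to Col3a1 (-2.52). Col3a1 had 111, 601 and 19289 normalized counts in the 3xCR tumors and 54.1, 1452, 159 and 102 in the GPC6 tumors, so that its value rested on 3xCR replicate 4.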

How the data were processed

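RNA of 7 endpoint tumors, 3 of 3xCR and 4 of GPC6 as titled in the labels, was sequenced from stranded poly(A) libraries. Per the labels and methods, STAR 2.5.0a mapped reads to mm10, and gene counts were normalized with DESeq2 1.20.0. The authors deposited this size-factor-normalized signal, 1 linear value per gene and library, with no correction for length. The counting strand, the rule for reads on several genes and the gene annotation are not given in the sources used here. Of 19282 entries, 25 with dates for names were left out (0.254% to 0.361% of reads). Divided by the worth of 1 read, 100% of values were whole (tolerance 0.01), so reads were recovered for count tests.

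The groups were compared with limma 3.58.1 (R 4.3.3) on log2(normalized count + 1) over 14782 genes with a mean of at least 10, two-sided, with Benjamini-Hochberg adjustment. edgeR 4.0.16, DESeq2 1.42.0, voom, other pseudocounts, filters and scalings, library weights, a replicate block and leaving out each library were alternatives. The tests were run on simulated counts with 1 fixed setting of spread for all genes, large changes and no outlying library. That setting differs from these tumors, so it says nothing of power or error in them. Lengths are merged GENCODE exons of GRCm38, the assembly also called mm10. The 10 genes, the lists of related genes and the cell markers were chosen with earlier results of these data known. The rule for names covered the 10 genes, those most and least alike in pattern, each list's highest gene and extremes of log2 fold change, and any tested gene of the MMP and regulator lists. The text uses only some of these. The cell markers named singly and the synapsins were named after their values were seen.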

Additional observations from a re-analysis of the deposited data

Results flagged for a closer look

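The ratio of Timp2 to Mmp2 per kilobase in GPC6 replicate 1 was 24.6, against 11.9, 13 and 13 in the other 3 GPC6 tumors. It stood out because its gap to the next value, on a log scale, was 0.871 of the group's whole range, above Dixon's critical value for 4 samples. This was 1 of 15 quantities looked at, where chance singles out about 1 in 20, or 0.75 of the 15. In that library Timp2 had the highest (5220) and Mmp2 the lowest (184) normalized count of the 7.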

How the results depend on the processing

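Over 20 alternatives of the fit, Mmp2, Mmp14, Mmp15 and Timp1 stayed below 0 and Mmp17 above 0, and the other 5 genes reversed in at least 1. limma's library weights called 1962 genes and 2 of the 10 at an adjusted p under 0.05, Mmp2 (log2 fold change -0.81, adjusted p = 0.0312) and Mmp17 (1.65, adjusted p = 0.0291). Over all alternatives their adjusted p ran up to 0.999, and DESeq2 gave 0.0632 for Mmp2. DESeq2 called 4 genes and every other alternative called 0 genes. Leaving out GPC6 replicates 1 and 2 together, an alternative chosen after seeing the data, called 0 of the 10 and 0 genes. The cause was not tested. Log2 fold changes that turned were Mmp9 with voom (0.054), Timp3 with library weights (0.34) and Timp2 without GPC6 replicates 1 and 2 (-0.081). Count models moved Mmp9 to -2.15 (edgeR, DESeq2) and Mmp15 to -0.11 (edgeR) and -0.080 (DESeq2), and library weights moved Mmp14 to -0.48. With 1 library left out in turn the ranges were -1.96 to 1.40 for Mmp9, -0.57 to 0.16 for Mmp16, -0.14 to 0.22 for Timp2, -0.37 to 0.13 for Timp3 and -0.71 to 0.13 for Timp4. The median of the other MMP genes ran from -1.49 to 0.16, turning without 3xCR replicate 4. That of the ADAM and ADAMTS genes ran from -0.56 to 0.029, turning without GPC6 replicate 1. That of the matrix substrates ran from -0.88 to -0.0067 and that of the regulators from -0.57 to -0.24. Per length of the longest transcript, 4 genes changed place in the order, Timp1 with Timp3 and Mmp16 with Mmp17.

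Same-numbered libraries deviated together with correlations of -0.194, 0.118 and 0.296 for numbers 2, 3 and 4. Among the 3xCR tumors only replicate 4 correlated best with its own number, and among the GPC6 tumors replicates 3 and 4 did. The highest correlation, 0.504, was between 3xCR replicate 2 and GPC6 replicate 1. The numbers were not taken to pair the tumors. A replicate block, in which GPC6 replicate 1 has no partner and adds nothing to the estimate, called 0 of the 10 and 0 genes, left 678 genes at an unadjusted p under 0.05 against 689, and turned Mmp16 (0.16) and Timp2 (-0.069). Depth limits Mmp9, Timp1 and the low MMP genes most, and the number of tumors limits every comparison.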
